A study of Mus musculus with 18 samples.

Results

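The accessible chromatin around 5 microRNA genes of the macrophage was described: Mir155, Mir146, Mir21a, Mir223 and Mir142. All entries of the deposited peak lists that came within 50 kb of the annotated start of a microRNA gene, or of the start of a host transcript that contains its hairpin, were taken. This gave 99 of 82391 reference peaks, 107 of 84660 summits and 60 of 59617 extended regions. The peaks were called from ATAC-seq, an assay in which the transposase Tn5 inserts adapters into exposed DNA. The cells were bone marrow-derived macrophages (BMDMs), cultured from the marrow of wild type mice (male, C57/BL6, 6 to 8 weeks old). All of them received the solvent DMSO for 1 h and were then left untreated, or were given 10 ng/mL of LPS, the bacterial ligand of TLR4, or of the cytokine IL4 for 30 min, 1 h, 2 h or 4 h. The 18 libraries formed 9 groups of 2, namely 1 untreated group, 4 LPS groups and 4 IL4 groups.

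The 3 lists were pooled over all groups, and 0 of their columns belonged to a single library. Neither the stimulus, nor the time, nor the replicates could be compared, the depth of the libraries is unknown, and no value below has a replicate error or a test. A reference peak is an interval that passed the authors' threshold, an extended region is a stretch around 1 or more neighbouring peaks, and a summit is the point of highest signal inside a peak. Every summit carries a score whose scale is not stated, so it was used only to rank summits within the list. The scores ran from 102 to 2781 with a median of 737 and took 219 distinct values, so that ties were common. A peak score below is the score of its best summit. Start sites of 8 of 8 macrophage marker genes, such as Csf1r, Adgre1 and Spi1, had a reference peak within 1 kb, against 4 of 23 marker genes of other cell types (Ms4a1, Pax5, Klrb1c and Camp). Any annotated start of a gene counted, and the share of all protein-coding genes with such a peak was not computed.

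MicroRNAs are short RNAs that guide Argonaute proteins to messenger RNAs, mostly through pairing of the seed near their 5′ end. They are cut out of a hairpin in a longer primary transcript, so the promoter of a microRNA can lie far from the hairpin, at the start of a host gene. miR-155 and miR-146a are known as products of Toll-like receptor and NF-kB signalling in macrophages, where miR-155 promotes inflammatory responses and miR-146a restrains them through the adaptors IRAK1 and TRAF6. miR-21 is induced by many stimuli including AP-1 and STAT3 signalling, and its primary transcript is known to start inside the gene Vmp1. miR-223 is a myeloid microRNA that limits granulocyte activation, and miR-142 is made in nearly all blood cells.

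The mature products are shown first because the seed defines what each locus makes. The sequences are those of RefSeq for GRCm38.p6, written 5′ to 3′ with bases 2 to 8, the seed, in capitals. The hairpin letters and positions in RefSeq, the genome and GENCODE release M21 were identical for all 5 genes.
miR-155-5p: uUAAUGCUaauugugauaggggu
miR-146a-5p: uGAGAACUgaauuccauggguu
miR-146b-5p: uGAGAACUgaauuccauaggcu
miR-21a-5p: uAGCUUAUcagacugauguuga
miR-223-3p: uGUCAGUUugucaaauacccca
miR-142a-5p: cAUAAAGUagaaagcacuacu
miR-142a-3p: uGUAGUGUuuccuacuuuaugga
No seed was shared among the 5 loci. The seed of miR-146a-5p was shared with miR-146b-5p, a product of the gene Mir146b on chromosome 19, and both mature RNAs were identical at 20 of 22 positions. Mir142 is known to give rise to abundant products from either arm of the hairpin, so both are shown.

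The loci differed in how many peaks they held. Mir21a had 43 reference peaks, Mir155 had 19, Mir142 had 16, Mir146 had 13 and Mir223 had 8. The windows were not of equal length, since the start of the Vmp1 transcript that contains Mir21a lies almost 100 kb upstream and its window therefore covered 199679 bp. Per 100 kb, Mir21a had 21.5 peaks, Mir155 17.1, Mir142 15.8, Mir146 13.0 and Mir223 7.78. The order of the loci after Mir21a depended on how peaks were counted. After peaks within 1 kb of each other were joined, Mir146 had 11, Mir155 had 10, Mir142 had 9 and Mir223 had 8. Away from protein-coding starts Mir146 had 13 peaks and Mir142 had 11, and within 20 kb Mir223 had 7 and Mir146 had 5. Counted from the microRNA gene start alone, Mir21a still had 29 peaks, and the counts of the other 4 loci did not move. Of the 99 peaks, 51 had their best summit between genes, 41 in an intron and 7 in an exon. The same split was not computed for all reference peaks. The outermost peak inside a window was 48957 bp from a start at Mir21a (score 448), and the nearest peak left out, also at Mir21a, was 50458 bp away (score 706).

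**Figure D1:**
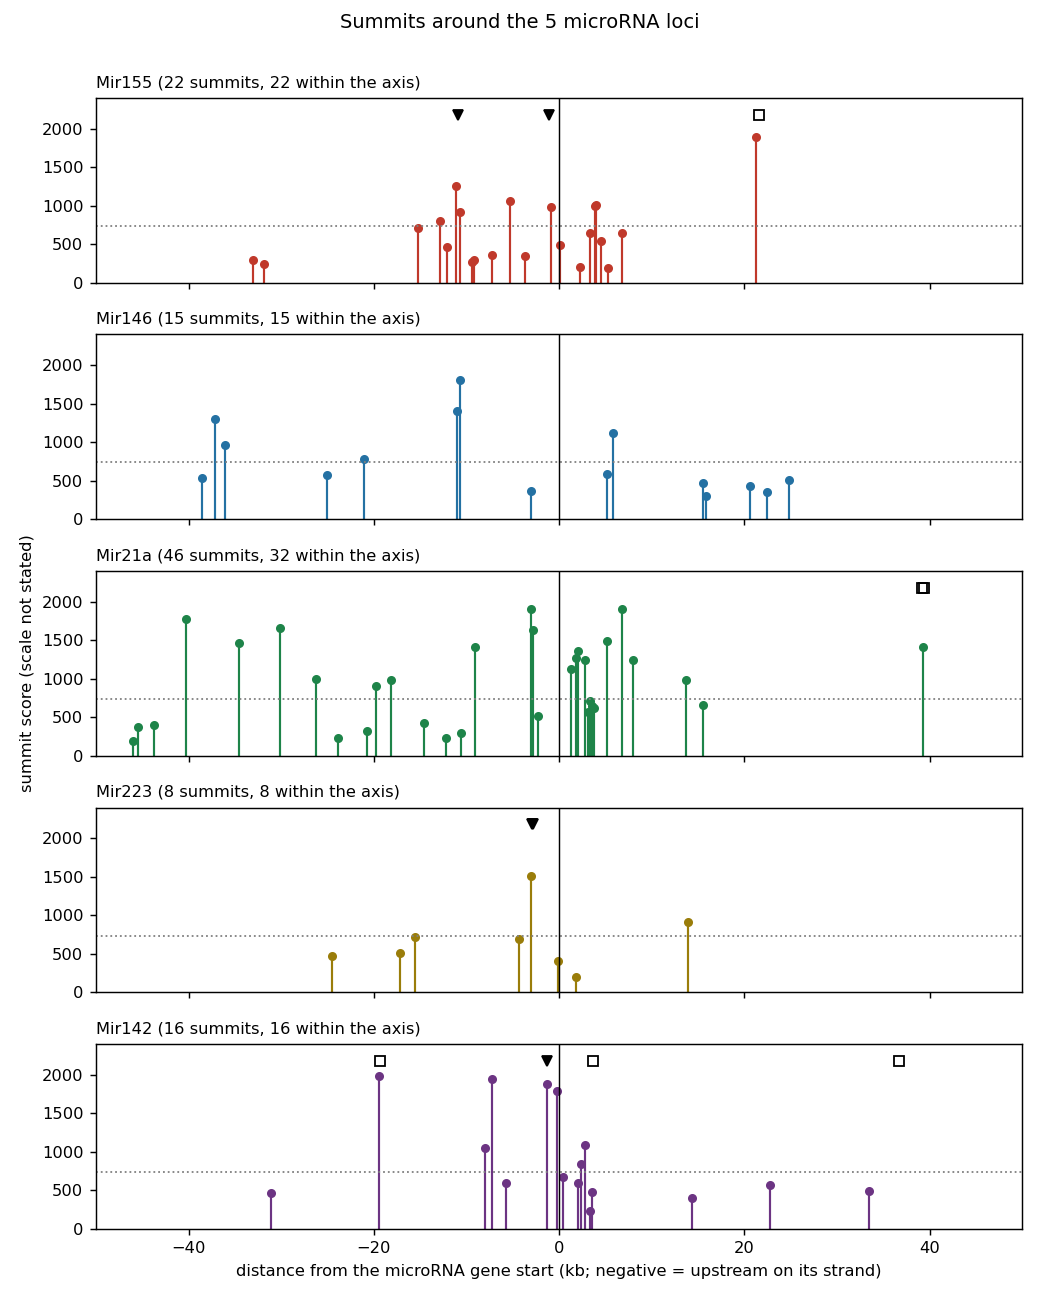
Score of each summit (vertical axis, scale not stated) against its distance in kb from the start of the microRNA gene (horizontal axis, negative values upstream on the strand of the gene) at the 5 loci. Triangles mark host transcript starts, open squares the main starts of protein-coding genes and the dotted line the median of all summits (737). The 14 summits of Mir21a near the far Vmp1 start lie outside the axis. High summits cluster around the hairpins of Mir21a and Mir142, while the best summit of Mir146 lies 10.8 kb upstream.

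Scores at the loci ran from 189 to 1982. The 107 summits had a median score of 664 (quartiles 453 and 1248), and 28 of them (26.2%) were at or above the third quartile of the list, against 25.2% of all summits. Mir21a supplied 18 of these 28 summits and had a median of 939.5. The medians of the other loci lay below that of the catalog: Mir142 had 634, Mir223 had 600, Mir155 had 594 and Mir146 had 573. Each locus nevertheless contained summits far above its median, up to 1982 at Mir142, 1903 at Mir21a, 1890 at Mir155, 1812 at Mir146 and 1505 at Mir223. The ranges of all loci overlapped.

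**Figure D2:**
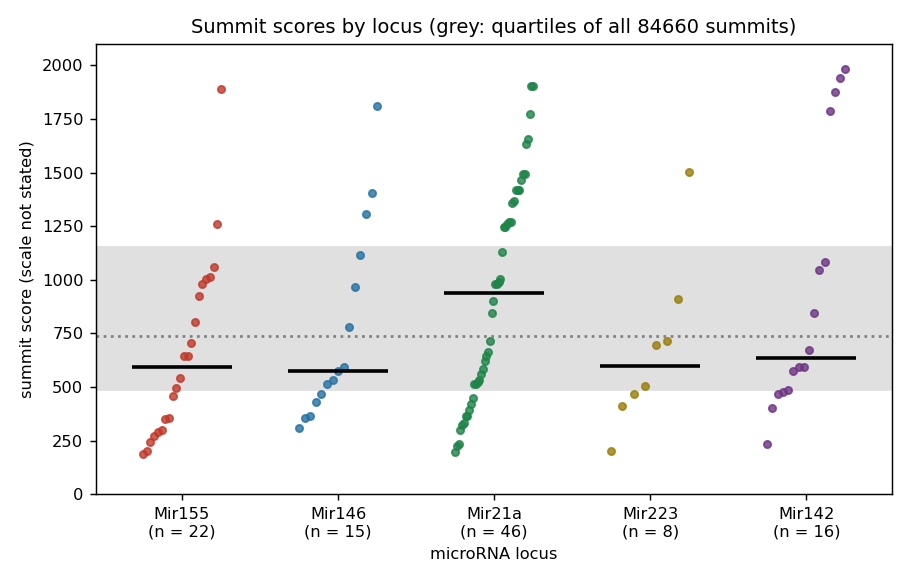
Summit scores (vertical axis, scale not stated) at each microRNA locus (horizontal axis), with 1 point per summit ordered by score and a black bar at the median of the locus. The grey band spans the quartiles of all 84660 summits (486 to 1153) and the dotted line is their median (737). The median of Mir21a (939.5) lies above the dotted line and those of the other 4 loci lie below it.

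Mir155 (ENSMUSG00000065397.1) is located at chr16:84714140-84714204 on the plus strand, in the last exon of its host transcript Mir155hg, a long non-coding RNA known chiefly as the precursor of miR-155. The whole hairpin, 65 of 65 bp, lay inside a reference peak (chr16:84714053-84714222, score 495). The first base of that peak was the first base of the host exon. Such an identity with an annotated exon edge was found for 90 of 82391 reference peaks (0.109%) and for 1 of the 99 at the loci; it was noticed after the values were seen, and its origin was not tested. GENCODE lists 2 starts of Mir155hg, and each was covered by a peak. The start 1117 bp upstream of the hairpin was in a peak of 607 bp with a score of 979 (chr16:84712863-84713469). The start 10973 bp upstream was in a wider peak of 882 bp with summits of 1260 and 923 (chr16:84702758-84703639). Between both starts lay 4 further peaks in an intron of the longer transcript, among which the highest scored 1059 and was 5350 bp upstream. Downstream of the hairpin, a single extended region of 6150 bp held 6 peaks with a best score of 1013, at the 3′ end of the neighbouring gene Mrpl39. The best summit of the locus (1890) was not at the microRNA but 21.2 kb downstream, at the start of Mrpl39, which encodes a mitochondrial ribosomal protein. The next best scores, 1260 and 1059, were at the distal host start and in the host intron.

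The 201 bases around the summit of the proximal host start and around the summit over the hairpin are shown (mm10, plus strand). Capitals mark consensus matches, and in the second sequence also the hairpin.
Mir155hg proximal start (chr16:84713187-84713387): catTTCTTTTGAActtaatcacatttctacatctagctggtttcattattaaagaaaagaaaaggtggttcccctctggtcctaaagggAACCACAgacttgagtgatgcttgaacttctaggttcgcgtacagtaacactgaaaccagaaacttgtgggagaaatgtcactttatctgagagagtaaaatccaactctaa
Mir155 hairpin (chr16:84714081-84714281): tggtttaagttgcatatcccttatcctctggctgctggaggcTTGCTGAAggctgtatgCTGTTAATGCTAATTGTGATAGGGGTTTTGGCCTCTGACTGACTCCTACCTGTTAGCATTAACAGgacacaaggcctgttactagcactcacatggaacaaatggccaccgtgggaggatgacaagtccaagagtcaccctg
The first stretch contained a STAT and a RUNX consensus, beginning 97 and 11 bp before the summit, and the second a C/EBP consensus just before the hairpin. The distal start was the richest in G and C: the 201 bases around its summit of 923 had a GC content of 80.1%, the highest among the 107 locus summits, and held an E-box as the only match.

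Mir146 (ENSMUSG00000065601.1), the gene of miR-146a, is located at chr11:43374397-43374461 on the minus strand. GENCODE M21 annotates no host transcript over this hairpin, and all 13 peaks were intergenic by their best summit. No peak lay within 1 kb of the hairpin, and the nearest was 2918 bp upstream with a score of 367. The best peak was 10633 bp upstream at its near edge (chr11:43385094-43385690, 597 bp) and had summits of 1812 and 1406. It contained the start of Gm12148, a long non-coding RNA that runs away from Mir146 on the plus strand, 40 bp from the second summit. The third best summit, 1308, lay 37138 bp upstream and held a CTCF consensus, as did a summit of 534 at 38501 bp. Downstream, a pair of peaks 5.1 and 5.8 kb from the start scored 593 and 1117. The only protein-coding gene with an annotated start in this window was Pttg1, the gene of securin. That start had no peak within 1 kb, and the main start of Pttg1, 51790 bp upstream, lay just outside the window.

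Both summits of the upstream peak had an NF-kB consensus within 100 bp. They are shown on the plus strand of mm10 with the matches in capitals.
Mir146 upstream peak, summit of 1812 (chr11:43385115-43385315): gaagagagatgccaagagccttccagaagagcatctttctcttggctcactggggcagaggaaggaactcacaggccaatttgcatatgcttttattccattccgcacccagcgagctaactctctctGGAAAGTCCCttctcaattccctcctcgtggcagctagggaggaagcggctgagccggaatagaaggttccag
Mir146 upstream peak, summit of 1406 (chr11:43385422-43385622): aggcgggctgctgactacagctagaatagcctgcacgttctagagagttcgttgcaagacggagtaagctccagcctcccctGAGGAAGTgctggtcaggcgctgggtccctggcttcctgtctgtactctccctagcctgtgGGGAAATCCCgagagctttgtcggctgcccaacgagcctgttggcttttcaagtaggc
In the first stretch, the NF-kB match (chr11:43385243-43385252) began 28 bp from the summit. In the second, the NF-kB match (chr11:43385565-43385574) began 43 bp from the summit and a PU.1 match began 18 bp on the other side of it. In all, 4 of the 15 Mir146 summits had an NF-kB consensus, against 5.55% of all summits in windows of the same length. With only the best summit of each extended region, 1 of 10 kept a match, the summit of 1812, against 5.34% of all such summits. The other 2 lay 36.0 kb upstream (968) and 15.8 kb downstream (307). NF-kB matches were found at 2 of 46 Mir21a summits and at 0 of 22, 0 of 8 and 0 of 16 summits of Mir155, Mir223 and Mir142.

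Mir21a (ENSMUSG00000065455.1) is located at chr11:86584067-86584158 on the minus strand and lies in the last exon of the long Vmp1 transcript, which encodes a membrane protein needed for autophagosome formation. The hairpin itself was not in a peak, and the nearest peak edge was 1149 bp downstream of the microRNA start. Of the 12 peaks within 10 kb of the microRNA start, most lay downstream. Upstream, a peak of 550 bp (chr11:86586795-86587344) had summits of 1903 and 1632. The starts of 2 short annotated Vmp1 transcripts fell into it, 2836 and 2723 bp upstream of the hairpin, the first of them 15 bp from a summit. This peak had none of the 11 consensus motifs within 100 bp of its summits. Downstream of the hairpin, an extended region of 5398 bp held 7 peaks and 9 summits with scores up to 1493, and it was followed at 6.7 kb by another peak of 1903. The start of the long Vmp1 transcript, shared with the oppositely oriented gene Ptrh2, had a peak with a score of 1272. The start shared by Rps6kb1, the gene of the S6 kinase, and Tubd1, a tubulin gene, had a peak of 1418 that lay 39.3 kb downstream, whereas 0 peaks were found within 1 kb of the starts of Cltc, the clathrin heavy chain gene, in the window. In the Vmp1 introns between them, high summits were found 30.1, 34.6 and 40.3 kb upstream of the hairpin (1657, 1468 and 1773).

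The summit 6.7 kb downstream of Mir21a tied for the best score of the locus and is shown because it had matches to 3 consensus motifs, more than any other summit within 10 kb of the hairpin (mm10, plus strand).
Mir21a downstream summit (chr11:86577315-86577515): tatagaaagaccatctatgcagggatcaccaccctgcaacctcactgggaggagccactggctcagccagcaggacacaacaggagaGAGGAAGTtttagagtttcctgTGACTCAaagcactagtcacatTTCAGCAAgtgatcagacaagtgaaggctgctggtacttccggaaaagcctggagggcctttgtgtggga
From left to right, the capitals mark PU.1, AP-1 and C/EBP matches, with the summit between the first and the second. AP-1 was the most frequent motif at this locus, found at 13 of 46 summits (28.3%) against 15.9% of all summits. Within 50 bp it was found at 8 of 46, against 11.6%. STAT and RUNX matches were each found at 7 of 46 summits (15.2%), against 6.81% and 7.91% of all summits. These 13 summits were spread from 13.7 kb downstream to 147.5 kb upstream of the hairpin, and their scores ranged from 367 to 1903.

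Mir223 (ENSMUSG00000076066.1) is located at chrX:96242817-96242926 on the plus strand, in an exon of the non-coding transcript F630028O10Rik. It had the fewest peaks within 50 kb. A peak of 179 bp with a score of 411 (chrX:96242596-96242774) ended 43 bp before the hairpin. The best peak, 315 bp wide with a score of 1505 (chrX:96239645-96239959), contained the first of 2 annotated host starts, 2891 bp upstream, with its summit 140 bp before that start. The second best score (911) was 13.9 kb downstream, in an intron of Vsig4, the gene of a complement receptor of tissue macrophages. The third was 716, 15.6 kb upstream. No protein-coding gene started inside this window.

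The host start peak of Mir223 is shown around its summit (mm10, plus strand), with an IRF consensus in capitals that began 67 bp after the summit.
Mir223 host start (chrX:96239686-96239886): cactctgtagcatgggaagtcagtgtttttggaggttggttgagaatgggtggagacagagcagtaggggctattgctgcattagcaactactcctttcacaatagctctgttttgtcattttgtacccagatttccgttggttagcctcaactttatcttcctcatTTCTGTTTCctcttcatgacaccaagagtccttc
IRF matches were found at 4 of 8 Mir223 summits, against 8.12% of all summits, including the peak before the hairpin (411) and those 4.3 and 15.6 kb upstream (695 and 716). Within 50 bp of the summit, 1 of 8 had a match, against 4.47% of all summits, and the match printed above lay outside that distance. The summit in Vsig4 held a PU.1 and a C/EBP match instead.

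Mir142 (ENSMUSG00000105196.1) is located at chr11:87756864-87756927 on the plus strand, in an intron of the non-coding host Mir142hg. The gene Mir142b overlaps it on the opposite strand. A peak of 415 bp with a score of 1786 (chr11:87756458-87756872) reached 9 bp into the 64 bp hairpin. Another peak of 463 bp (chr11:87755262-87755724, score 1877) covered the host start, whose annotated position was 34 bp from the summit. Both belonged to an extended region of 6876 bp with 8 peaks, the most of any extended region at the 5 loci, that ran on to the start of Tspoap1, which encodes a protein associated with the mitochondrial translocator TSPO. The peak over that start, 3.7 kb downstream, scored 476. Of the 3 best summits, the first (1982) was at the start of Supt4a, a transcription elongation factor gene 19.4 kb upstream, the second (1942) was 7.2 kb upstream between genes, and the third was the host start. No peak was found within 1 kb of the starts of Mpo, the myeloperoxidase gene of granulocyte precursors, 36.7 kb downstream, or of Rnf43.

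The summit 208 bp before the Mir142 hairpin is shown (mm10, plus strand), with PU.1 and AP-1 matches in capitals that began 9 bp before and 35 bp after the summit.
Mir142 hairpin peak (chr11:87756556-87756756): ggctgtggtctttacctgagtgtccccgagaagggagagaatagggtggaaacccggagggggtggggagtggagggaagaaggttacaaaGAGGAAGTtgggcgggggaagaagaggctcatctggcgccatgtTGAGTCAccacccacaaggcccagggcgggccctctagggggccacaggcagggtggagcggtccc
PU.1 matches were found at 3 of 16 Mir142 summits, against 9.08% of all summits, and AP-1 matches at 3 of 16, against 15.9%. With only the best summit of each extended region, PU.1 matches were found at 1 of 7, against 10.1% of all such summits. The host start itself had an E-box, and the Supt4a start had the only SP/KLF match of the 5 loci.

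**Figure D3:**
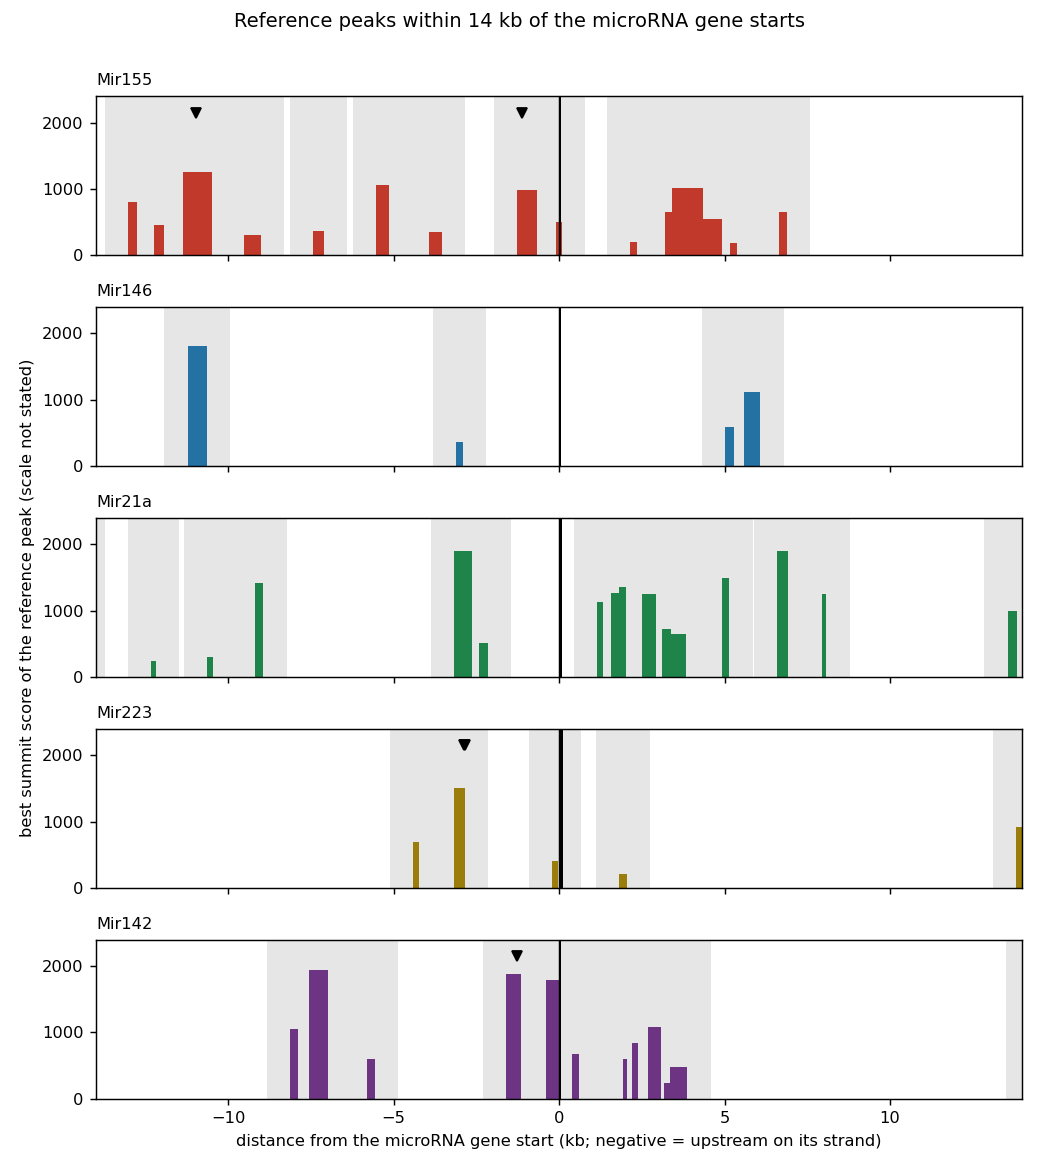
Reference peaks within 14 kb of the microRNA gene starts, drawn to scale as bars whose height is the best summit score (vertical axis, scale not stated) against distance in kb (horizontal axis, negative values upstream). Grey bands are extended regions, the black bar at 0 is the hairpin and triangles are host starts. Peaks touch the hairpins of Mir155 and Mir142, while Mir21a lies in a gap between its upstream peak of 1903 and the downstream cluster, and Mir146 has its best peak 10.8 kb upstream.

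The 5 loci were set beside all 2202 microRNA genes in the annotation, a background that includes many genes in clusters, which share their peaks. A reference peak within 1 kb of the microRNA gene or host start was found at 4 of 5 loci (all but Mir146), against 38.7% of all microRNA genes. Since 4 of the 5 loci have an annotated host, the share among microRNA genes with a host is the closer background, and host starts alone had a peak at 4 of 4 loci, against 60.6%. From the microRNA gene start alone the count was 3 of 5, against 14.3%. The hairpin was touched by a peak at 2 of 5 loci, against 5.86%. Within 10 kb of the microRNA gene start, Mir155 and Mir21a had 12 peaks each, a number exceeded by 5 of 2202 genes, and Mir142 had 11, exceeded by 9. Peaks that abut each other counted separately, and these ranks were not computed after joining peaks. Mir223 had 4 and Mir146 had 3, more than 84.5% and 77.5% of microRNA genes, while 1169 genes (53.1%) had 0. Within 50 kb, the 29 peaks of Mir21a were more than at 98.7% of microRNA genes and 99.1% of 21938 protein-coding genes. For Mir223, the 8 peaks exceeded 65.8% and 59.9%. Extended regions with 5 or more peaks numbered 3 of 60 at the loci, 1 each at Mir155, Mir21a and Mir142, against 1.11% of all extended regions. These are descriptions of 5 genes in a pooled catalog and were not tested.

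**Figure D4:**
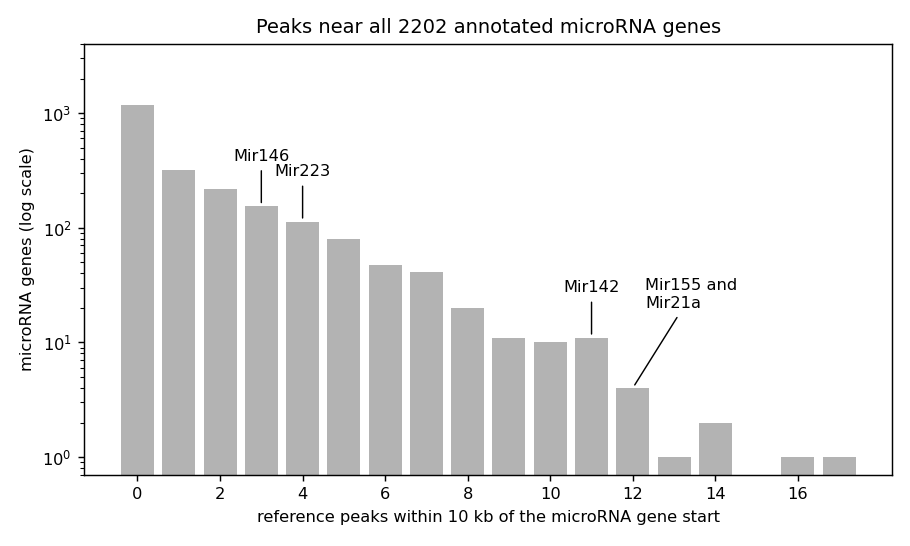
Number of annotated microRNA genes (vertical axis, log scale) by the number of reference peaks within 10 kb of the gene start (horizontal axis), for 2202 genes. Mir155 and Mir21a (12 peaks each) and Mir142 (11) lie in the right tail, Mir223 (4) and Mir146 (3) further left.

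For 11 transcription factor families, both strands were scanned for the consensus motif within 100 bp of every summit, and a summit was counted once per motif. Searched were TGACTCA for AP-1, GAGGAAGT for PU.1 and related ETS factors, TTNNGCAA for C/EBP, GAAANNGAA for IRF, TGTGGTT for RUNX, TGACGTCA for the cyclic AMP response element (CRE), GGGGCGGGG for SP/KLF, CACGTG for the E-box, and the longer NF-kB and CTCF consensus patterns. The STAT motif was TTC followed, 4 bases later, by GAA. The letters of different motifs can overlap, as can the windows of neighbouring summits. At least 1 motif was present at 63 of 107 locus summits (58.9%) and at 58.3% of all summits.

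Pooled over the loci, motif shares were close to those of the catalog. AP-1 was found at 18.7% of locus summits (95% exact binomial interval 11.8 to 27.4%) against 15.9% of all, C/EBP at 12.1% against 11.4%, PU.1 at 11.2% against 9.08%, IRF at 11.2% against 8.12%, RUNX at 11.2% against 7.91%, and STAT at 9.35% against 6.81%. NF-kB was found at 5.61% against 5.55%, CTCF at 3.74% against 3.03% and the E-box at 3.74% against 4.80%. The catalog share lay inside the interval of the loci for each of these 9 motifs. With only the best summit of each extended region, AP-1 was found at 28.3% of 60 locus summits (17.5 to 41.4%). The catalog share, 17.3%, lay outside that interval. Mir21a supplied 11 of the 17 AP-1 matches, from 29 summits. The other loci had 2 of 8 (Mir155), 2 of 10 (Mir146), 0 of 6 (Mir223) and 2 of 7 (Mir142). RUNX was found at 16.7% (8.29 to 28.5%) against 8.30%, at the edge of its interval. Within 50 bp, 4 motifs with a higher share at the loci than in the catalog at 100 bp had a lower one, namely IRF (2.80% against 4.47%), C/EBP (5.61% against 6.50%), NF-kB (2.80% against 3.40%) and CTCF (1.87% against 2.53%). SP/KLF was found at 0.935% (0.0237 to 5.10%) against 4.46%, and CRE at 0 of 107, which allows up to 3.39%, against 0.938%. The summit windows of the loci had a median GC content of 47.8%, against 50.2% over all summits, and 5 of 107 (4.67%) consisted to 50% or more of repeats, against 6.15%. The intervals cover counting error only. The matches described by locus, such as NF-kB at Mir146, AP-1, STAT and RUNX at Mir21a and IRF at Mir223, were picked out after the values were seen and rest on 4 to 13 summits each.

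**Figure D5:**
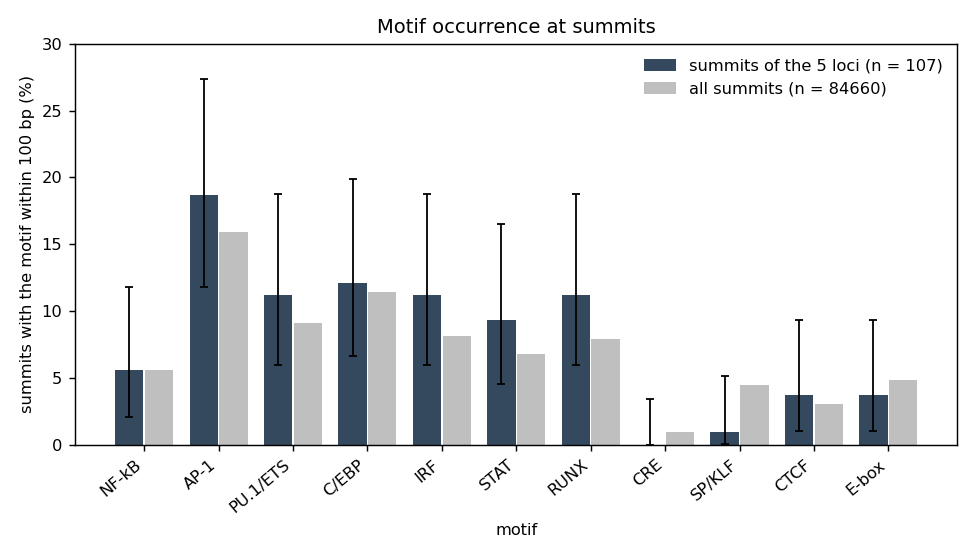
Share of summits with each consensus motif within 100 bp (vertical axis, percent) by motif (horizontal axis), for the 107 summits of the 5 loci (dark bars, with 95% exact binomial intervals that cover counting error only) and for all 84660 summits (grey bars). The grey bar lies inside the interval of the dark bar for all 11 motifs, AP-1 being the most frequent in either set (18.7% and 15.9%).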

How the data were processed

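ATAC-seq libraries of BMDMs were sequenced as single-end reads. According to the study's methods, adapters were removed with BBDuk and reads were trimmed with Trimmomatic 0.39, mapped to mm10 with ShortStack and filtered with SAMtools 1.9. The authors called peaks with MACS2 2.2.6 without a local background and with duplicates kept, and retained stringent peaks that overlapped between replicates. Versions are those of the submitters' processing notes. No Tn5 shift is named, so a summit can lie beside the most cut base, and kept duplicates can raise a score. The 3 deposited BED lists give positions, and the summit list gives a score per summit as deposited by the authors, whose scale is not stated. Fold changes, tests, replicate comparisons and depth could not be derived from these pooled lists, and 0 columns belonged to other samples.

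Distances were measured from GENCODE M21 starts, with 50 kb for a locus, 1 kb for a start site and 100 bp around summits for motifs. A host transcript is one that contains the hairpin. Sequence was read from GRCm38.p6, whose chromosomes carry mm10 coordinates (21 of 21 contained all entries). Scripts used Python 3.11.15, pandas 2.3.3, numpy 2.4.6 and scipy 1.17.1 and were tested on simulated data. Shares of summits have 95% exact binomial intervals. For each locus, the text names the peak nearest the microRNA, the peaks at its starts, the 3 best summits and the protein-coding genes with a start in the window. Members, gene lists and motifs were chosen with earlier results of these data known. The values of 1 planned motif are not reported here. Alternatives were other windows, start definitions, peak filters and motif widths.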

Additional observations from a re-analysis of the deposited data

How the results depend on the processing

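The 99 peaks became 64 within 20 kb, 151 within 100 kb and 44 when only peaks with a best summit at or above the median score were kept. From the microRNA gene starts alone (85), away from protein-coding starts (87) or after joining peaks within 1 kb (72), the count stayed within 1.5 times. Mir21a had the most peaks under all 6 alternatives, but single loci moved by more than that: joining peaks took Mir155 from 19 to 10 and Mir142 from 16 to 9, 20 kb took Mir146 from 13 to 5 and Mir21a from 43 to 23, and 100 kb took Mir155 from 19 to 38 and Mir223 from 8 to 17. The filter on the median score left 6 peaks at Mir155, 5 at Mir146, 24 at Mir21a, 2 at Mir223 and 7 at Mir142. The number of loci with a start site peak was 4 with 500 bp and 2500 bp, 4 of the 4 loci with an annotated host for host starts alone, and 3 from the microRNA gene start alone, while the share of all microRNA genes was 36.1% with 500 bp, 43.2% with 2500 bp and 14.3% from the microRNA gene start alone. For host starts alone it was 60.6% of the microRNA genes with an annotated host. The share of locus summits with a motif was 35.5% within 50 bp, 72% within 200 bp and 68.3% for the best summit of each extended region, against 41.9%, 71.8% and 60.8% of all summits. The catalog share of AP-1 left the interval of the loci under the last of these, where Mir21a held 11 of the 17 AP-1 matches. NF-kB fell under that setting to 1.67% against 5.34%. The median score was 664 with the best summit of each peak and 593 away from annotated starts, where that of the whole list fell from 737 to 664. No paired analysis was possible because the lists carry no value per library, and libraries could not be left out in turn. The unknown depth limits what the absence of a peak means.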

Other observations

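Other microRNA genes were described in the same way, from lists drawn up from general knowledge but with earlier results of these data known. Of 20 microRNA genes related to myeloid cells or their stimulation, 14 had a reference peak within 1 kb of the microRNA gene or a host start, against 38.7% of all microRNA genes. All 11 genes of this list with an annotated host had a peak at a host start, against 60.6% of microRNA genes with a host, and 6 of 20 had one at the microRNA gene start alone, against 14.3%. The 20 genes had a median of 16.5 peaks within 50 kb of the microRNA gene start (range 5 to 24). The median of all microRNA genes was 4 (quartiles 0 and 10). The 6 without a start site peak were Mir150, Mir221, Mir222, Mir29a, Mir29b-1 and Mir34a, for which no host transcript is annotated. Of 20 microRNA genes typical of other tissues, 2 had such a peak, Mir124a-3 and Mir9-1 (1 of 14 genes with a host, and 1 of 20 at the microRNA gene start alone), and their median was 3 peaks within 50 kb (range 0 to 10). Members of a cluster share their peaks, such as Mir99b, Mirlet7e and Mir125a, or Mir23a, Mir27a and Mir24-2, or Mir132 and Mir212. The Mir23a and Mir132 clusters supplied every myeloid gene with a peak at the microRNA gene start except Mir342. Counts of genes are therefore not counts of separate loci, and the lists were not tested against each other.

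Among the myeloid genes, Mir132 was the only one whose hairpin was touched by a peak, which contained all of its 66 bp (1 of 20 genes, against 5.86% of all microRNA genes). The start of Mir212 next to it was 112 bp from a peak. Mir146b, which shares its seed with miR-146a, had 24 peaks within 50 kb, the nearest 1007 bp away. Mir511, in the mannose receptor gene Mrc1, a marker of IL-4 stimulated macrophages, had 16, the nearest 1139 bp away.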
